A study of Mus musculus with 12 samples.

Results

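Primary cardiac fibroblasts given the GDF15 preparation were compared directly with cells given the CCN2 preparation, on 8 of the 12 Illumina bead arrays of the series. The members were the arrays whose labels name one of the 2 proteins: 4 arrays of cells cultured with 500 nmol/L GDF15 (title numbers 9, 10, 11 and 12) and 4 arrays of cells cultured with 200 nmol/L CCN2 (title numbers 5, 6, 7 and 8), both for 48 h. The other 4 arrays, from untreated cells (title numbers 1, 2, 3 and 4), served as the common reference and helped to estimate the spread. All cells came from female C57/BL6 mice aged 10 to 16 weeks and were grown with 10% fetal calf serum and gentamycin. Each protein was used at a single dose and the doses differed, so the agent and its dose cannot be told apart. The source of either protein is not given in the sources used here. Nothing in the labels tells whether replicate arrays stem from different cultures or mice, so each p-value covers the variation among these arrays alone, possibly technical.

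CCN2, or connective tissue growth factor (CTGF), is released into the matrix, binds integrins, LRP receptors and several growth factors, and is best known in the heart for its association with fibrosis. GDF15 is a secreted stress-induced member of the TGF-beta superfamily. Its known receptor, GFRAL, works together with the receptor tyrosine kinase RET and is found mainly in the hindbrain. Cardiac fibroblasts make and remodel the collagen matrix of the heart, can turn into contractile myofibroblasts, and answer inflammatory signals by releasing cytokines and chemokines.

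All 14 fibroblast markers with a named probe, among them Pdgfra, Tcf21, Dcn and Col1a2, were detected on all 12 arrays. Of 13 macrophage markers with a named probe, 11 were also detected on all 12 arrays. In bulk RNA fewer cells of a type and less RNA per cell cannot be told apart. Levels are normalized log2 intensities, and a difference is the GDF15 mean minus the CCN2 mean on that scale with the standard error (SE) of the limma fit. A probe counts as detected where its detection p-value is under 0.05. Before normalization the 75th percentile of the signal was 87.4 ± 8.00 on the GDF15 arrays and 77.5 ± 1.16 on the CCN2 arrays (SD, n = 4, exact permutation p = 0.114). Between 19004 and 19481 probes were detected per GDF15 array and between 18009 and 18979 per CCN2 array (exact permutation p = 0.0286, which is the lowest value possible with 8 arrays, adjusted p = 0.0571 over 2 tests). The arrays correlated at 0.987 to 0.994 within the GDF15 group, at 0.992 to 0.994 within the CCN2 group and at 0.948 to 0.958 across the 2 groups. The GDF15 arrays were the more variable set: 257 of 11018 genes had an SD over 0.4 there, against 60 on the CCN2 arrays and 12 on the control arrays.

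The treatments differed in a large share of the measured transcripts. Of 20445 tested probes, 8534 (41.7%) differed at an adjusted p-value under 0.05, 4262 of them higher (20.8%) and 4272 lower (20.9%) in GDF15 cells, and 1488 (7.28%) differed by at least 2-fold. With each gene represented by its brightest tested probe, 5055 of 11018 genes (45.9%) differed, 2627 higher (23.8%) and 2428 lower (22%). In 4610 genes (41.8%) the GDF15 and CCN2 arrays did not overlap. Against control, 2471 genes (22.4%) differed in GDF15 cells and 6164 (55.9%) in CCN2 cells. The nearly even split depends on quantile normalization: with median scaling 72.1% of the called probes were higher in GDF15 cells, and the median difference of all tested probes was 0.12 in place of -0.0033. The percentages of genes are the background against which the counts of each gene list are read.

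**Figure D1:**
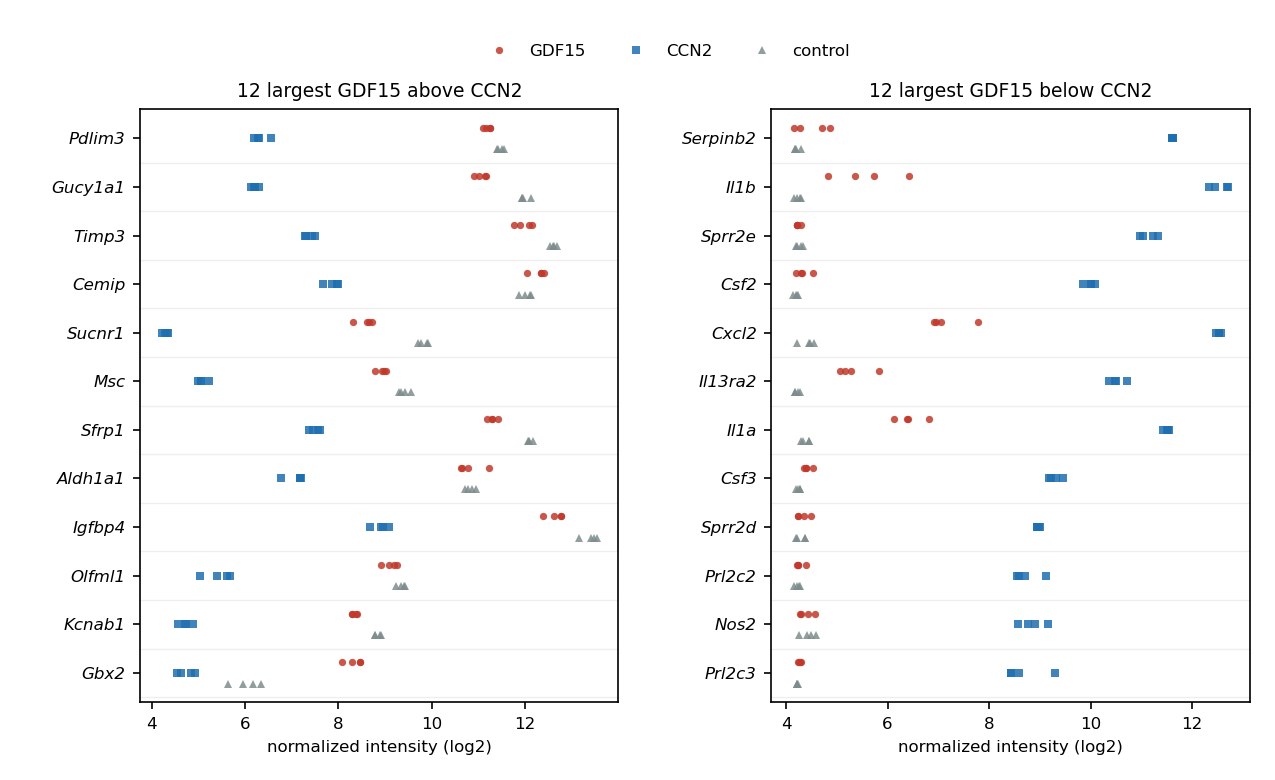
Normalized log2 intensity on each array (x axis) of the 12 genes furthest above (left) and the 12 furthest below (right) in GDF15 cells relative to CCN2 cells; each point is 1 of 4 GDF15 arrays (red circles), 4 CCN2 arrays (blue squares) or 4 control arrays (grey triangles). In most of these genes the GDF15 points lie closer to the control points than to the CCN2 points. Gbx2, Cxcl2 and Il1a are among the genes where the 3 groups are all apart.

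Predicted and unnamed transcripts aside, the 12 genes furthest below their CCN2 level in GDF15 cells were Serpinb2, Il1b, Sprr2e, Csf2, Cxcl2, Il13ra2, Il1a, Csf3, Sprr2d, Prl2c2, Nos2 and Prl2c3. Serpinb2, an inhibitor of plasminogen activators, had 4.86, 4.71, 4.28 and 4.15 on the GDF15 arrays and 11.63, 11.61, 11.63 and 11.61 on the CCN2 arrays. It was detected on 2 of 4 GDF15 arrays and on all 4 CCN2 arrays, and the difference was -7.12 (SE 0.12). Interleukin-1 beta, Il1b, had 5.74, 6.42, 5.37 and 4.83 on the GDF15 arrays and 12.69, 12.45, 12.70 and 12.33 on the CCN2 arrays. The GDF15 arrays were spread over more than 1 log2 unit and none came near the CCN2 arrays, with a difference of -6.95 (SE 0.22). Interleukin-1 alpha, Il1a, gave 6.41, 6.81, 6.12 and 6.39 on the GDF15 arrays and 11.55, 11.50, 11.53 and 11.43 on the CCN2 arrays, a difference of -5.07 (SE 0.11). Cxcl2, which attracts neutrophils, had 6.95, 7.79, 6.92 and 7.05 on the GDF15 arrays and 12.57, 12.54, 12.47 and 12.54 on the CCN2 arrays, a difference of -5.35 (SE 0.15). Its control level was 4.42 ± 0.15, so the GDF15 arrays lay between the control and the CCN2 arrays, as they did for both interleukin-1 genes. The decoy receptor gene Il13ra2 differed by -5.18 (SE 0.13).

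A second set of these genes stayed near or below the detection limit in GDF15 cells. Sprr2e, a cornified envelope gene, gave 4.20, 4.30, 4.21 and 4.22 on the GDF15 arrays and 11.04, 11.24, 10.98 and 11.33 on the CCN2 arrays, and no GDF15 or control array detected it, so its level was at least 96.5-fold lower in GDF15 cells. The colony-stimulating factor genes Csf2 and Csf3, which drive granulocyte and macrophage growth, lay below CCN2 by at least 43.1-fold for Csf2 and at least 26.8-fold for Csf3. For Csf2 the arrays read 4.31, 4.29, 4.52 and 4.19 with GDF15 and 10.00, 9.85, 10.00 and 10.08 with CCN2. Sprr2d was at least 21.4-fold lower, and the proliferin genes Prl2c2, Prl2c3 and Prl2c4 stood lower by bounds of at least 18.2-fold, 17.6-fold and 13.0-fold. Members of the Prl2c and Sprr2 families are near-identical copies, and the probes may not separate them. The inducible nitric oxide synthase Nos2 was detected on 1 of 4 GDF15 arrays and on all 4 CCN2 arrays, with a difference of -4.46 (SE 0.12). Where 1 of 4 arrays detected a gene, as here in GDF15 cells and for some other genes, the remaining values of that group are at background, so the difference does not give an exact size. Adjusted p-values of the 12 genes with the largest negative difference ran from 4.56e-18 to 1.82e-13.

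At the other end stood genes far lower in CCN2 cells than in either GDF15 or control cells. Pdlim3, an actin-associated PDZ and LIM domain protein, had 11.16, 11.10, 11.24 and 11.24 on the GDF15 arrays and 6.30, 6.55, 6.28 and 6.18 on the CCN2 arrays, against 11.50, 11.39, 11.55 and 11.42 on the control arrays. Its difference was 4.86 (SE 0.09), and no GDF15 array came within the range of the CCN2 arrays. Gucy1a1, the alpha subunit of the nitric oxide receptor guanylate cyclase, had 11.15, 10.90, 11.16 and 11.02 on the GDF15 arrays and 6.13, 6.19, 6.21 and 6.30 on the CCN2 arrays, a difference of 4.85 (SE 0.086). The metalloproteinase inhibitor Timp3 had 11.75, 11.90, 12.15 and 12.09 on the GDF15 arrays and 7.30, 7.29, 7.50 and 7.44 on the CCN2 arrays, a difference of 4.59 (SE 0.096), which is 24.0-fold. Cemip, which takes part in hyaluronan breakdown, was higher by 4.42 (SE 0.10). The succinate receptor gene Sucnr1 was detected on no CCN2 array and was at least 15.7-fold higher in GDF15 cells. The transcription factor Msc differed by 3.84 (SE 0.089), the WNT antagonist Sfrp1 by 3.79 (SE 0.084), the retinoic acid-forming Aldh1a1 by 3.75 (SE 0.13) and the IGF-binding protein Igfbp4 by 3.73 (SE 0.11). Olfml1 and the potassium channel subunit Kcnab1 differed by 3.68 (SE 0.13) and 3.61 (SE 0.085), Kcnab1 with detection on 3 of 4 CCN2 arrays. The set was completed by the homeobox gene Gbx2 at 3.59 (SE 0.14). Adjusted p-values of these 12 genes ran from 1.65e-16 to 1.40e-12. Relative to control, GDF15 cells were lower in Sucnr1 (-1.25), Gucy1a1 (-0.93), Sfrp1 (-0.80), Igfbp4 (-0.75) and Timp3 (-0.64), all past the threshold. The same held for Kcnab1 (-0.49), Msc (-0.48) and Pdlim3 (-0.28), while Gbx2 was above control (2.30). In Cemip, Aldh1a1 and Olfml1 this difference did not pass the threshold.

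Genes were then placed by the order of the 3 groups. A gene was called CCN2-led where CCN2 differed from both other groups, its 4 arrays lay outside the range of the 8 others, and the 95% interval of GDF15 minus control lay within -0.5 and 0.5. By this measure 1283 genes were raised and 1223 were lowered in CCN2 cells, together 22.7% of the tested genes. The same rule with the treatments exchanged gave 88 raised and 62 lowered GDF15-led genes, together 1.36%. In 1291 genes both treatments differed from control the same way and from each other, and in 58 of these the GDF15 change was the larger. These classes join comparisons that use the same control arrays and the counts carry no test. The classes overlap, since a difference inside the limits of 0.5 can still pass the threshold. Pdlim3 was CCN2-led with GDF15 minus control at -0.28, past the threshold. Bdnf and Cpxm1 were GDF15-led with CCN2 minus control at -0.27 and -0.28, also past it. Scaling moved them: with median scaling 577 raised and 1570 lowered genes were CCN2-led, and 69 raised and 29 lowered genes were GDF15-led. These were not all the same genes. Of the 1283 raised and 1223 lowered CCN2-led genes, 542 and 981 stayed in their class. Of the 88 raised and 62 lowered GDF15-led genes, 36 and 13 stayed.

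CCN2-led genes with the largest differences included Sprr2e, Csf2, Csf3, Nos2 and the Prl2c genes among those raised by CCN2. Apart from Nos2, no GDF15 or control array detected these genes, so they passed the detection filter through the CCN2 arrays alone. Both other groups lie at background there, and the floor sets their interval of GDF15 minus control. Their place in this class thus does not show that GDF15 had no effect on them. Nos2 was detected on 1 of 4 arrays in either group. Of all 1283 raised genes, 65 were undetected in both of those groups, for which an effect of GDF15 below the detection limit would not be seen. The lowered ones, apart from Pdlim3, Cemip and Aldh1a1, included the matricellular gene Ccn5, which had 13.99, 13.99, 13.93 and 13.97 on the GDF15 arrays and 10.26, 10.34, 10.49 and 10.48 on the CCN2 arrays, against 14.12, 14.18, 13.89 and 14.02 on the control arrays. The GDF15 arrays of Ccn5 lay within the control range, while every CCN2 array lay more than 3 units lower. Others were the guanylate cyclase subunit gene Gucy1a2 at 3.34 (SE 0.11), the myosin regulator Limch1 at 3.33 (SE 0.095), the globin gene Cygb at 3.32 (SE 0.16) and Ildr2 at 2.99 (SE 0.086). Cemip left this class without GDF15 array 10 and with median scaling, and Pdlim3 left it without GDF15 array 11 or 12. A dimmer second probe of Gucy1a2 did not pass the threshold.

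Genes that stood highest in GDF15 cells formed a smaller and different set, led by a chemokine, protease inhibitors and transcription factors. In 188 genes all 4 GDF15 arrays lay above the 8 others and both differences passed the threshold, and in 92 genes all 4 lay below. The chemokine gene Ccl6 read 11.29, 11.39, 11.09 and 11.21 on the GDF15 arrays and 9.40, 9.25, 9.28 and 9.31 on the CCN2 arrays, against 9.40, 9.21, 9.24 and 9.09 on the control arrays. The CCN2 and control arrays of Ccl6 overlapped, the 95% interval of CCN2 minus control was -0.11 to 0.27, and GDF15 minus CCN2 was 1.93 (SE 0.09), which is 3.82-fold. The homeobox gene Gbx2 read 8.30, 8.46, 8.46 and 8.07 on the GDF15 arrays and 4.92, 4.84, 4.54 and 4.62 on the CCN2 arrays, against 6.33, 5.96, 6.16 and 5.64 on the control arrays. Here the 3 groups were separate, with GDF15 highest and CCN2 lowest, and 2 of 4 CCN2 arrays detected the gene. Serpina3f, a protease inhibitor of the acute phase, read 9.04, 9.12, 9.07 and 8.90 on the GDF15 arrays and 5.80, 5.89, 6.00 and 6.14 on the CCN2 arrays, against 6.99, 6.85, 6.79 and 6.74 on the control arrays, again in 3 separate ranges.

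Others with GDF15 outermost were the AP-1 subunit gene Fos at 2.34 (SE 0.11), the vasopressin receptor Avpr1a at 2.35 (SE 0.093), the dicarboxylate carrier Slc13a3, detected on 2 of 4 CCN2 arrays, at 1.91 (SE 0.14) and the secreted glycoprotein Lrg1 at 1.76 (SE 0.13) relative to CCN2 cells. Relative to control cells they were higher by 1.47, 1.37, 1.56 and 1.38. The WNT-inducible matricellular gene Ccn4 read 9.80, 9.66, 9.74 and 9.42 on the GDF15 arrays and 8.14, 8.05, 8.18 and 8.39 on the CCN2 arrays, and its control level was 8.29 ± 0.10. Other GDF15-led genes were the neurotrophin Bdnf at 1.40 (SE 0.099), the sulfotransferase gene Gal3st2 at 1.62 (SE 0.10), the ribonuclease gene Rnase2b at 1.36 (SE 0.11) with 1 of 4 CCN2 arrays detecting it, the carboxypeptidase-like Cpxm1 at 1.35 (SE 0.095), the zinc finger gene Zic4 at 1.22 (SE 0.09) and the pseudogene Speer6-ps1 at 1.10 (SE 0.14). With median scaling Ccl6, Rnase2b, Zic4 and Speer6-ps1 stayed in the GDF15-led class, and Ccn4, Bdnf, Gal3st2 and Cpxm1 left it. A dimmer probe of Gal3st2 did not pass the threshold, and the Speer family holds near-identical copies. Adjusted p-values of the 14 genes ran from 9.46e-14 to 6.50e-06.

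**Figure D2:**
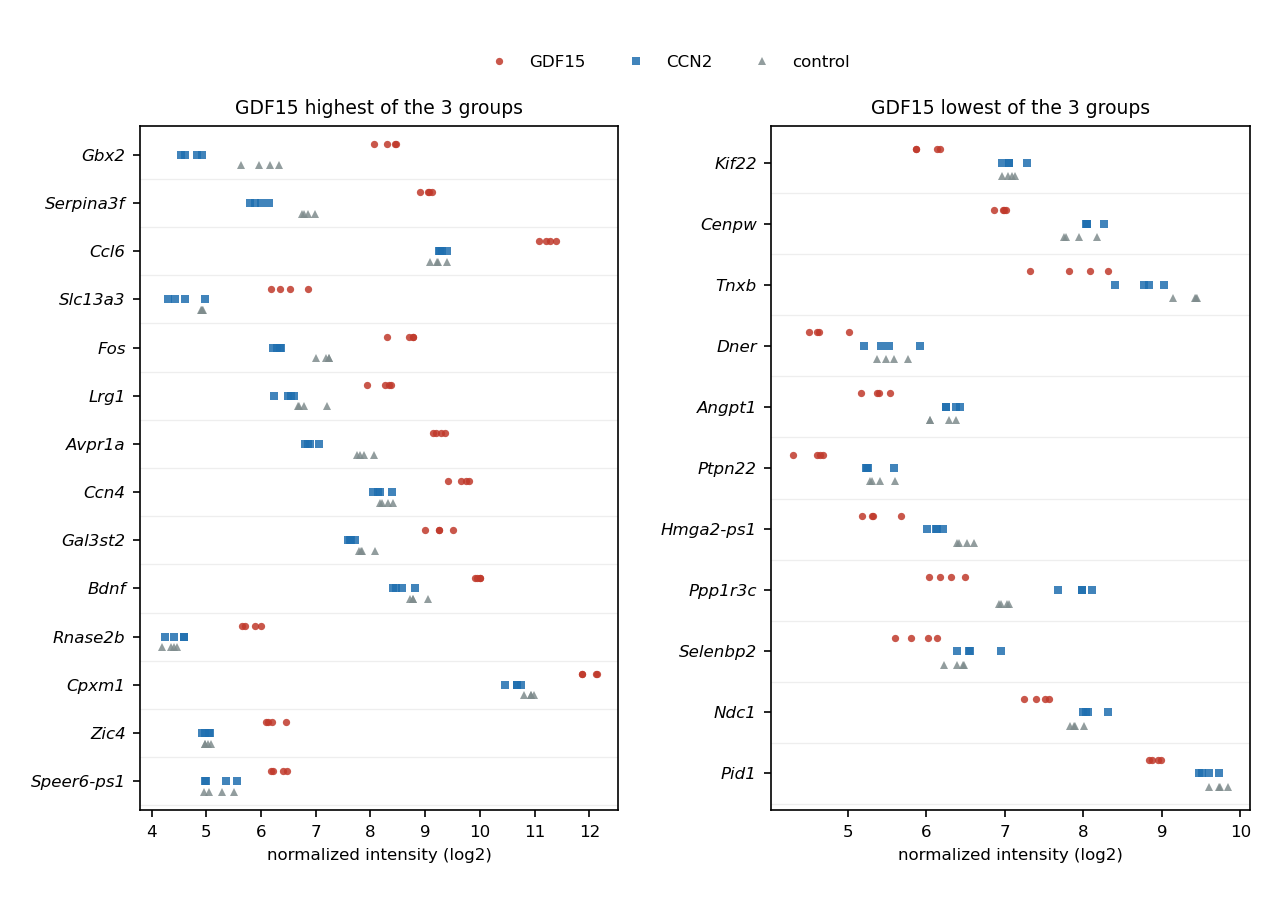
Normalized log2 intensity on each array (x axis) of named genes in which the GDF15 arrays (red circles) lie above (left) or below (right) all CCN2 arrays (blue squares) and control arrays (grey triangles). Ccl6 shows CCN2 and control points together and GDF15 points near 11, while Gbx2 and Serpina3f show 3 separate ranges; most differences on the right are under 1 unit.

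Genes lowest in GDF15 cells showed smaller differences, and the 2 at the top of the ranking act in cell division. The kinesin gene Kif22, which moves chromosomes in mitosis, read 5.87, 6.17, 6.13 and 5.87 on the GDF15 arrays and 6.96, 7.06, 7.28 and 7.05 on the CCN2 arrays, against 7.04, 6.96, 7.09 and 7.12 on the control arrays. The kinetochore gene Cenpw read 6.98, 7.01, 6.98 and 6.87 on the GDF15 arrays and 8.03, 8.04, 8.26 and 8.04 on the CCN2 arrays. In both genes all GDF15 arrays lay below the overlapping CCN2 and control arrays, with differences of -1.08 (SE 0.097) and -1.13 (SE 0.099). Angpt1, a ligand of the endothelial receptor TEK, differed by -0.96 (SE 0.10), the Notch-related Dner by -0.83 (SE 0.14), the phosphatase gene Ptpn22 by -0.77 (SE 0.11), Selenbp2 by -0.72 (SE 0.13), the nucleoporin gene Ndc1 by -0.67 (SE 0.095) and Pid1 by -0.67 (SE 0.085). Dner and Ptpn22 were detected on 3 of 4 GDF15 arrays, and with Pid1 they left the GDF15-led class with median scaling. The tenascin gene Tnxb and the pseudogene Hmga2-ps1 were also lowest in GDF15 cells, at -0.88 (SE 0.17) and -0.75 (SE 0.10), with CCN2 arrays between GDF15 and control. Adjusted p-values of these 10 genes ran from 6.55e-08 to 5.31e-04.

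In 105 genes the 2 treatments lay on opposite sides of control, both past the threshold, 86 with GDF15 high and 19 with GDF15 low. Without GDF15 array 12 the second count was 29. Among those high with GDF15, the alarmin gene Il33 read 9.56, 9.71, 9.32 and 9.60 on the GDF15 arrays and 5.98, 6.18, 6.12 and 6.63 on the CCN2 arrays, against 8.61, 8.63, 8.49 and 8.55 on the control arrays. Every GDF15 array was above and every CCN2 array below the control range, and GDF15 minus CCN2 was 3.32 (SE 0.12), which is 10.00-fold. Serpina3n, a protease inhibitor close to Serpina3f, read 13.05, 12.97, 12.99 and 12.92 on the GDF15 arrays and 10.22, 10.40, 10.19 and 10.41 on the CCN2 arrays, a difference of 2.68 (SE 0.10). Dio3, which inactivates thyroid hormone, differed by 2.10 (SE 0.11), with detection on 1 of 4 CCN2 arrays. Gbx2, Serpina3f and Avpr1a belonged here too.

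The named genes opposed the other way were Ppp1r3c, Aqp1, Ndrg1, Tfrc, Gtse1 and Espn. Ndrg1, a hypoxia-inducible gene, read 7.73, 7.79, 7.71 and 7.96 on the GDF15 arrays and 9.53, 9.46, 9.40 and 9.49 on the CCN2 arrays, against 8.49, 8.42, 8.51 and 8.33 on the control arrays. The transferrin receptor gene Tfrc, for iron uptake, read 7.57, 7.57, 7.68 and 7.56 on the GDF15 arrays and 9.16, 9.36, 9.20 and 9.16 on the CCN2 arrays, against 8.20, 8.19, 8.23 and 7.99 on the control arrays. In both genes the GDF15 arrays were lowest and the CCN2 arrays highest, with differences of -1.67 (SE 0.083) and -1.63 (SE 0.084). Ppp1r3c, which targets a phosphatase to glycogen, differed by -1.68 (SE 0.11), the water channel Aqp1 by -1.65 (SE 0.091), the mitotic gene Gtse1 by -1.18 (SE 0.12) and the actin-bundling Espn by -1.53 (SE 0.14). Espn left this class without GDF15 array 9, 10 or 12, and with an offset of 50, without the detection filter or with the authors' processed values. Adjusted p-values of GDF15 minus CCN2 for the opposed genes of both directions ran from 9.46e-14 to 5.25e-07 among those named.

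**Figure D3:**
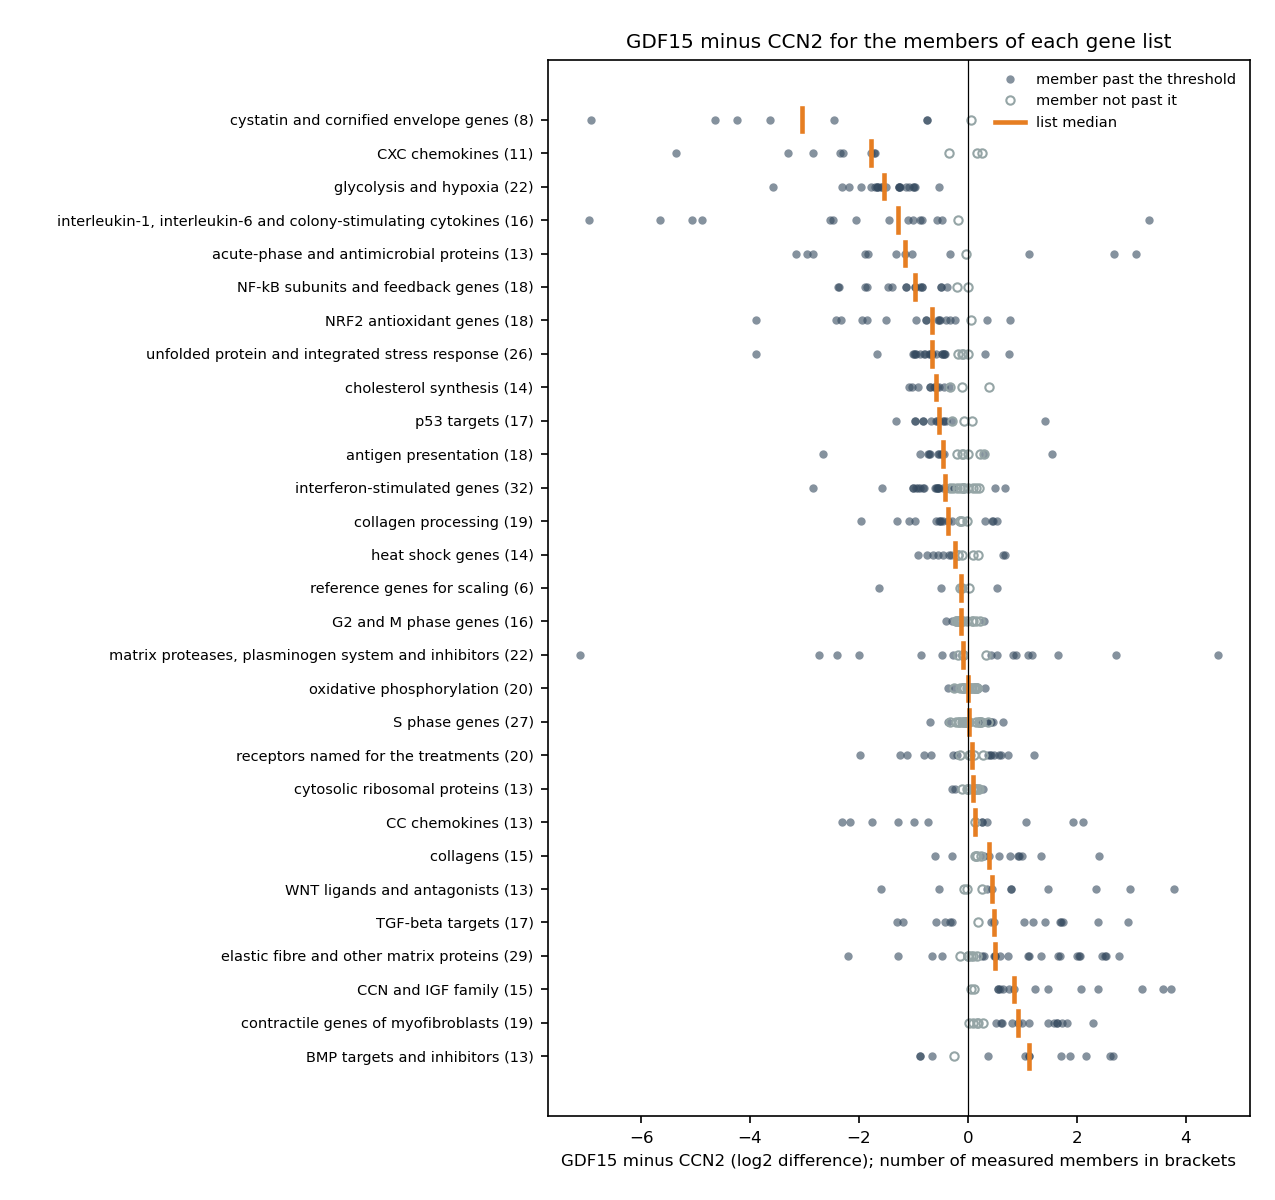
GDF15 minus CCN2 (x axis, log2 difference) for each measured member of the gene lists, with filled points past the threshold, open points not past it and an orange bar at the list median. The NF-kB, cytokine, CXC chemokine and glycolysis medians lie left of 0, the CC chemokines lie on both sides of it, cell cycle and oxidative phosphorylation lists lie around 0, and contractile, CCN, IGF and BMP lists lie right of 0.

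Most members of the NF-kB, cytokine and interferon lists were lower in GDF15 cells than in CCN2 cells, and most were above control with either treatment. Of 18 NF-kB subunits and feedback genes, 16 were lower and none was higher than in CCN2 cells (22% and 23.8% of all genes). The median difference was -0.98 (0.0038 over all genes). Of the same genes 13 were higher in GDF15 cells than in control cells (9.76% of all genes), and 17 were higher in CCN2 cells than in control cells (25.7%). The largest differences were those of the adaptor gene Traf1 at -2.39 (SE 0.10), the ubiquitin-editing inhibitor Tnfaip3 at -2.37 (SE 0.11), the inhibitor of apoptosis Birc3 at -1.88 (SE 0.21) and the co-regulator Nfkbiz at -1.85 (SE 0.11). Of 16 interleukin-1, interleukin-6 and colony-stimulating cytokines, 14 were lower and Il33 alone was higher, with a median of -1.28. No GDF15 array detected 3 of the 16, and Csf2 and Csf3 passed the detection filter through the CCN2 arrays alone. The filter thus shaped this count, and 9 were lower with a stricter one (p-value under 0.01 on 8 or more arrays).

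Of 32 interferon-stimulated genes, 19 were lower and 2 were higher (22% and 23.8% of all genes), with a median of -0.42. Gbp2, a guanylate-binding GTPase, was at -1.57 (SE 0.10), the nucleic acid sensor Zbp1 at -1.01 (SE 0.10) and Oasl1 at -1.01 (SE 0.10). In GDF15 cells 27 of the 32 were above control (9.76% of all genes) and in CCN2 cells 30 (25.7% of all genes). Cxcl10, an interferon-inducible chemokine detected on 3 of 4 GDF15 arrays, was at -2.85 (SE 0.12). Of 18 antigen presentation genes, 10 were lower and 2 were higher, and the class II gene H2-Ab1 was furthest away at -2.66 (SE 0.15). Its level was 6.06 ± 0.23 in GDF15 cells and 8.72 ± 0.35 in CCN2 cells (SD, n = 4 each), while the class II peptide loader H2-DMa was higher at 1.54 (SE 0.092). The other members past the threshold with the largest differences were Nlrc5 at -0.89 (SE 0.10) and H2-K1 at -0.73 (SE 0.14).

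The CXC chemokines lay lower in GDF15 cells or did not pass the threshold, while the CC chemokines lay on both sides. Of 11 CXC chemokines, 8 were lower in GDF15 cells and none was higher (22% and 23.8% of all genes), with a median of -1.78. No GDF15 array detected 2 of the 11, and Cxcl3 passed the detection filter through the CCN2 arrays alone. The filter thus shaped this count, and 3 were lower with a stricter one (p-value under 0.01 on 8 or more arrays). Besides Cxcl2 and Cxcl10, Cxcl3 was at least 8.28-fold lower, being detected on no GDF15 array, and the neutrophil attractant Cxcl1 was at -2.35 (SE 0.11). Of 13 CC chemokines, a list that also held Cx3cl1, 6 were lower and 6 were higher, with a median of 0.14 that turned to -0.0030 without the detection filter and to -0.73 with the stricter one. Lower were the macrophage chemokine Ccl3 at -2.32 (SE 0.10) and the eotaxin gene Ccl11 at -2.16 (SE 0.13). Higher were Ccl6 and Ccl12, a ligand of CCR2, which read 11.29, 11.29, 10.90 and 11.15 on the GDF15 arrays and 9.02, 9.18, 8.93 and 9.07 on the CCN2 arrays. Its control level was 10.97 ± 0.10, near the GDF15 arrays. Ccl20, a ligand of CCR6, was higher too, at 1.07 (SE 0.14), and read 5.71, 6.23, 5.43 and 6.05 on the GDF15 arrays, 4.76, 4.80, 4.55 and 5.01 on the CCN2 arrays and 4.34, 4.31, 4.42 and 4.20 on the control arrays. Ccl20 was chosen from the list for its promoter, after its value was seen.

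**Figure D4:**
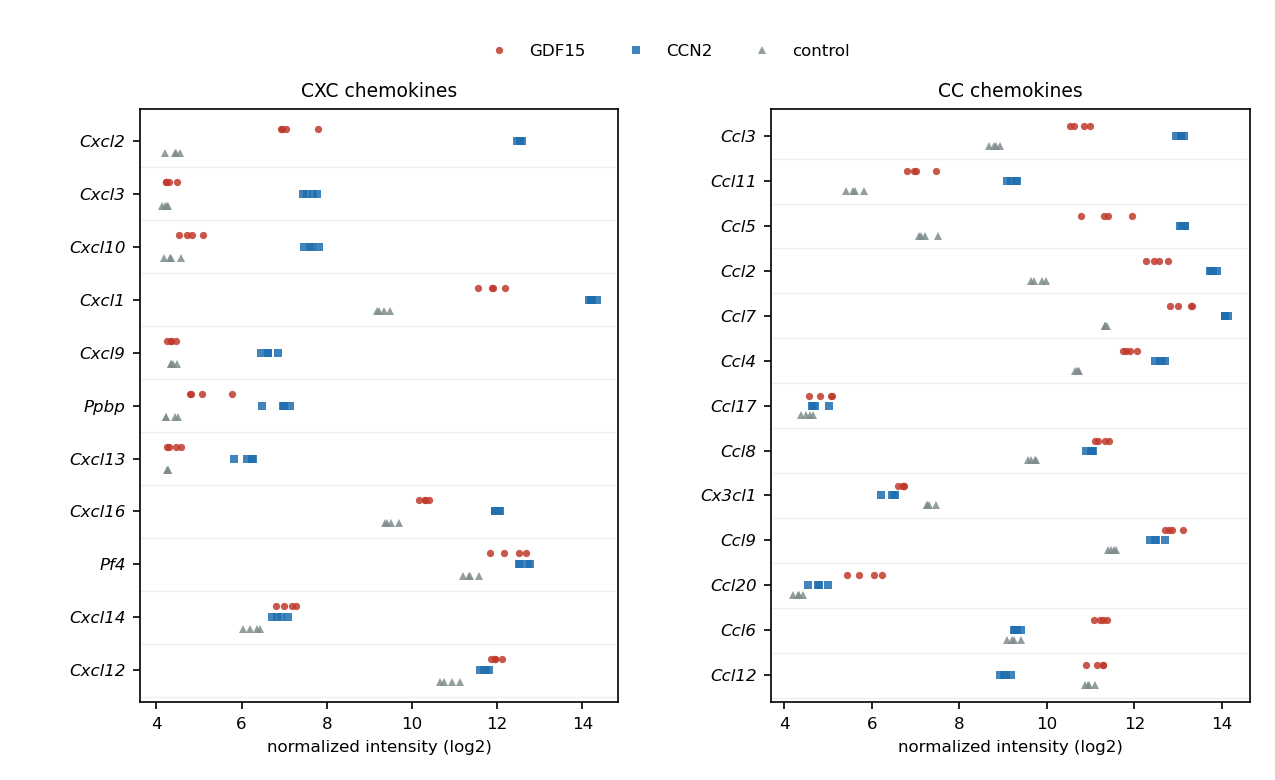
Normalized log2 intensity on each array (x axis) of the measured CXC chemokines (left) and CC chemokines (right), ordered from the most negative to the most positive GDF15 minus CCN2 difference, for GDF15 (red circles), CCN2 (blue squares) and control arrays (grey triangles). Cxcl2 and Cxcl3 show the widest gaps at the top, and Ccl6 and Ccl12 at the bottom right are the CC chemokines furthest above their CCN2 level.

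Promoter sequences are shown for the chemokine pair Cxcl2 and Ccl20, which differed in opposite directions, for Cxcl10 and for the oxygen-sensing gene Egln3, as members of the interferon and glycolysis lists. They are RefSeq windows of GRCm38.p6 that run from 250 bases before to 50 bases after the gene start, printed along the gene's strand, with letters that match the motif in capitals. Cxcl2 lies at chr5:90903649-90903948 on the plus strand and Ccl20 at chr1:83116516-83116815 on the plus strand, with matches to the kappa-B letters GGGNNTTTCC on either strand. Cxcl10 lies at chr5:92348840-92349139 on the minus strand, with a match to the interferon-stimulated response element letters GAAANNGAAA. Egln3 lies at chr12:54203825-54204124 on the minus strand, with a match to the hypoxia response letters ACGTG.
Cxcl2: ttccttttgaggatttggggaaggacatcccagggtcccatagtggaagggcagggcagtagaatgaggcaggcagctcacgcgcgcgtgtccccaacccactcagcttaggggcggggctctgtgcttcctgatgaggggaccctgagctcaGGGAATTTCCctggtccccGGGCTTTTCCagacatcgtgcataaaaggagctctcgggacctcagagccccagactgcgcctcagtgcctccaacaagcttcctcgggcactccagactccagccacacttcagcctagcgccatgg
Ccl20: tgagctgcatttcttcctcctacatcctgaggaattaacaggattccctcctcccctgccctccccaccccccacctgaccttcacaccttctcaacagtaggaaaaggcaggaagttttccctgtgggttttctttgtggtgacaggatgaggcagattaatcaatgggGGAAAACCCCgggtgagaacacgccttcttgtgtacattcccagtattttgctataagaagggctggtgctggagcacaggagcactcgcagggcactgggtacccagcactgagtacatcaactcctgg
Cxcl10: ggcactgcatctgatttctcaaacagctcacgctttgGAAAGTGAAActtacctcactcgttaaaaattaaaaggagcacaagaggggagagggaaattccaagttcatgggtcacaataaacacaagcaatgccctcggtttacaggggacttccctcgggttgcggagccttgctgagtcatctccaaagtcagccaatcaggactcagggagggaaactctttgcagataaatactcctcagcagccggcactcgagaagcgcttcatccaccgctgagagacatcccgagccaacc
Egln3: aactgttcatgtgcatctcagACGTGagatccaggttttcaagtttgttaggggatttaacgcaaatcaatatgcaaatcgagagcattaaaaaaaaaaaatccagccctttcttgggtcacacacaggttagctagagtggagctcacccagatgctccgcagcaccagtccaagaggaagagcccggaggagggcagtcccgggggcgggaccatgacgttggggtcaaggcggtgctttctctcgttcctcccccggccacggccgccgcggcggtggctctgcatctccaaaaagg
The kappa-B letters were in 15 of 50 windows (30%) of the NF-kB, cytokine and chemokine lists and in 1.63% of all 32851 windows. The interferon letters were in 17 of 30 windows (56.7%) of the interferon list and in 3.44% of all windows. The hypoxia letters were in 18 of 28 windows (64.3%) of the glycolysis list and in 19.6% of all windows. The E2F letters TTTNNCGC were in 11 of 27 windows (40.7%) of the S phase list and in 5.17% of all windows. The list shares cover measured members whether or not they differed between the treatments. A list made by function can hold its motif through that choice, so a high share says nothing about the treatments. In the 178 windows of the genes picked by rule the shares were smaller: 3.37%, 6.18%, 27.0% and 4.49%, in the same order. A match is a run of letters and not a measured binding site, and it was present both in Cxcl2, lower in GDF15 cells, and in Ccl20, higher in them.

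Acute-phase and antimicrobial genes also lay on both sides. Of 13 measured, 9 were lower and 3 were higher in GDF15 cells (22% and 23.8% of all genes). Saa1, among the 9, passed the detection filter through the CCN2 arrays alone, so the filter shaped this count. The iron carrier gene Lcn2 read 11.15, 12.11, 10.96 and 10.90 on the GDF15 arrays and 14.39, 14.42, 14.55 and 14.42 on the CCN2 arrays, a difference of -3.16 (SE 0.2), and the GDF15 arrays were widely spread. Saa1 was at least 6.29-fold lower, although a dimmer probe of it did not pass the threshold. The antimicrobial peptide gene Camp was lower at -2.85 (SE 0.15), and Serpina3f and Serpina3n were higher. Of 17 cystatin and cornified envelope genes with a probe, 8 passed the detection filter, 5 of which no GDF15 array detected. Those 5 passed through the CCN2 arrays alone, so no count over the list is given. Among those detected in both treatments were Cstdc4 at -4.23 (SE 0.15) and Csta2 at -3.63 (SE 0.18) relative to CCN2 cells, which belong to a family of close copies.

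Glycolysis and hypoxia genes separated the treatments without exception. All 22 measured members were lower in GDF15 cells than in CCN2 cells, the arrays overlapped in none (all GDF15 arrays were lower in 20.1% of all genes), and the median difference was -1.54. Egln3, an oxygen-sensing prolyl hydroxylase, read 6.03, 6.56, 6.36 and 6.34 on the GDF15 arrays and 10.12, 9.93, 9.63 and 9.88 on the CCN2 arrays, against 5.46, 5.17, 5.44 and 5.25 on the control arrays. GDF15 lay about 1 unit above control and CCN2 more than 4 units above it, with GDF15 minus CCN2 at -3.57 (SE 0.12). The glucose carrier gene Slc2a1 read 9.36, 9.41, 9.25 and 8.99 on the GDF15 arrays and 11.64, 11.59, 11.59 and 11.45 on the CCN2 arrays, a difference of -2.32 (SE 0.10). The lactate carrier Slc16a3, detected on 1 of 4 GDF15 arrays, was at -2.18 (SE 0.10), with a dimmer probe not past the threshold, and P4ha2, a collagen prolyl hydroxylase, was at -1.97 (SE 0.087). In GDF15 cells 14 of the 22 were above control (9.76% of all genes) and Ndrg1 was below it. All 22 were above control in CCN2 cells (25.7% of all genes). The 20 genes of oxidative phosphorylation, in contrast, had a median of 0.011, and 2 were lower and 1 was higher (22% and 23.8% of all genes). These were Cycs at -0.37 (SE 0.09), Ndufa1 at -0.25 (SE 0.091) and Cox4i1 at 0.31 (SE 0.085). The dimmer Cycs probes did not pass the threshold. With median scaling neither Cycs nor Ndufa1 passed the threshold, and 4 members were higher and 0 lower. Ndufa1 also lost its call without GDF15 array 10 or 11 or CCN2 array 5, 6 or 7 or in the fit of the 8 arrays alone, which left 1 lower member, and without GDF15 array 12 the higher members numbered 2.

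Stress response lists were mostly lower in GDF15 cells than in CCN2 cells as well (22% of all genes were lower and 23.8% higher). Above and below control in GDF15 cells were 6 and 1 NRF2 genes, 5 and 0 protein folding stress genes, 4 and 3 p53 targets and 2 and 0 heat shock genes. In CCN2 cells these counts were 15 and 2, 22 and 2, 13 and 3, and 9 and 2. Over all genes 9.76% were above and 12.7% below control with GDF15, and 25.7% and 30.2% with CCN2. Of 18 NRF2 antioxidant genes, 15 were lower and 2 were higher, with a median of -0.66. The cystine carrier Slc7a11 read 6.32, 6.58, 6.44 and 6.64 on the GDF15 arrays and 10.50, 10.51, 10.32 and 10.25 on the CCN2 arrays, a difference of -3.90 (SE 0.10). The quinone reductase gene Nqo1 was at -2.41 (SE 0.13), Srxn1 at -2.33 (SE 0.085) and the glutathione synthesis gene Gclm at -1.94 (SE 0.081). For Nqo1 the 95% interval of GDF15 minus control was -0.35 to 0.22. Of 26 members of the list for protein folding stress and the integrated stress response, 20 were lower and 2 higher, led after Slc7a11 by the lipoprotein receptor gene Vldlr at -1.66 (SE 0.10), Creld2 at -1.01 (SE 0.097) and Shmt2 at -0.98 (SE 0.12). Of 14 cholesterol synthesis genes, 11 were lower and none was higher, with Lss at -1.08 (SE 0.10) and Cyp51 at -1.02 (SE 0.10). In that list 1 gene was above control in GDF15 cells (9.76% of all genes) and 11 were in CCN2 cells (25.7% of all genes). Of 17 p53 targets, 13 were lower and Sesn1 alone was higher, at 1.41 (SE 0.11). The growth arrest gene Gadd45a was at -1.31 (SE 0.11) and the cell cycle inhibitor Cdkn1a at -0.98 (SE 0.091). Of 14 heat shock genes, 7 were lower and 2 were higher, the largest being Hspb8 at -0.92 (SE 0.08).

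Most genes of the 2 cell cycle lists lay below control with either treatment, and 1 S phase gene was above it in CCN2 cells (25.7% of all genes). The cell division genes named earlier differed from this in CCN2 cells. Gtse1 was above control there (0.63, past the threshold), while Kif22 (0.030) and Cenpw (0.18) did not pass it. Of 27 S phase genes, 7 were higher and 2 lower in GDF15 cells than in CCN2 cells (23.8% and 22% of all genes). The higher S phase genes were thus near the share over all genes. Of 16 genes of G2 and M phase 1 was higher and 2 were lower. With median scaling these counts were 12 and 1 for S phase and 3 and 0 for G2 and M phase, and without normalization between arrays 13 and 1 and again 3 and 0. Without GDF15 array 11 the higher S phase genes numbered 4, and without GDF15 array 9, 10 or 12 or CCN2 array 7 the lower ones numbered 1. The lower G2 and M phase genes numbered 4 without CCN2 array 5 and 1 without CCN2 array 6 or 8. The 95% interval of the difference lay within -0.5 and 0.5 for 17 of the 27 and 14 of the 16 (54.5% of all genes). Against control, 26 of the 27 S phase genes in GDF15 cells (12.7% of all genes were lower) and 25 in CCN2 cells (30.2% of all genes), and 15 of the 16 later genes in either were lower. The thymidine kinase gene Tk1, an S phase gene named after its values were seen, read 6.11, 5.89, 5.84 and 6.26 on the GDF15 arrays and 6.05, 5.74, 5.83 and 5.51 on the CCN2 arrays, against 8.19, 8.11, 7.82 and 8.08 on the control arrays. The 2 treated groups overlapped about 2 units below control, and the 95% interval of their difference was -0.019 to 0.51 (adjusted p = 0.131, and 0.0198 with median scaling or 0.0434 without CCN2 array 5). Past the threshold were the helicase gene Mcm6 at 0.65 (SE 0.11), Mcm4 at 0.45 (SE 0.11) and Gins1, detected on 2 of 4 CCN2 arrays, at 0.43 (SE 0.12) on the high side and the thymidylate synthase Tyms at -0.70 (SE 0.091) on the low side. The dimmest probe of Mcm6 and the 2 dimmest of Tyms did not pass it. Cdca3 and Nusap1 were lower at -0.40 (SE 0.095) and -0.30 (SE 0.094), calls that median scaling ended. Kif23 was higher at 0.30 (SE 0.12), a call lost without any 1 of 6 of the 8 arrays and without the detection filter. The dimmer probes of Cdca3 and Kif23 did not pass the threshold. The median of the later list was -0.13, which turned to 0.057 with median scaling and to 0.098 without normalization between arrays.

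**Figure D5:**
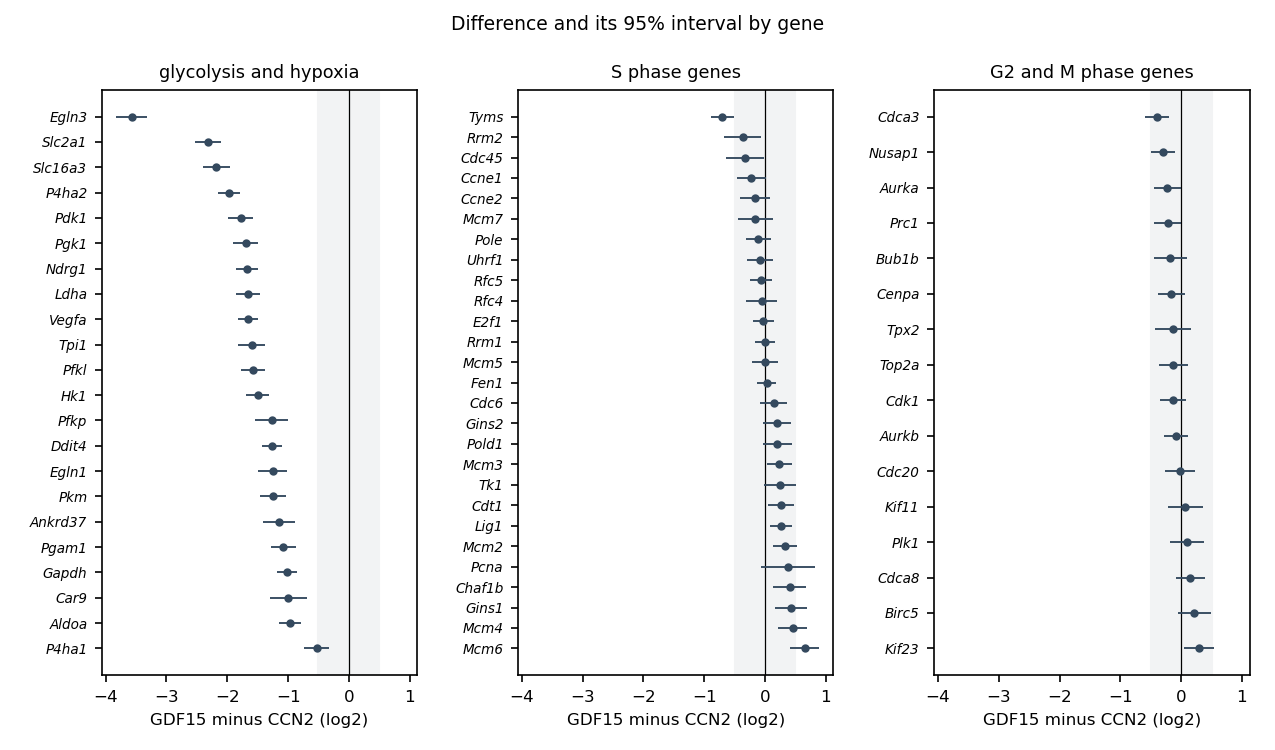
GDF15 minus CCN2 (x axis, log2) with its 95% interval from the fit for each measured gene of glycolysis and hypoxia (left), S phase (middle) and G2 and M phase (right); the grey band marks -0.5 to 0.5. Every interval on the left lies below 0, while most intervals of the cell cycle genes lie inside the band.

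Genes of the contractile fibroblast were higher in GDF15 cells than in CCN2 cells. Of 19 measured, 14 were higher than in CCN2 cells and none was lower (23.8% and 22% of all genes), with a median of 0.93. Against control 3 of the 19 were lower and 4 higher in GDF15 cells (12.7% and 9.76% of all genes). In CCN2 cells 15 were lower and 1 was higher (30.2% and 25.7% of all genes). Pericyte and smooth muscle markers, which share this programme, moved the same way in 7 of 9, with list means given with the other cell types; their part was not tested. The smooth muscle actin Acta2, which marks myofibroblasts, read 13.93, 13.96, 14.15 and 14.06 on the GDF15 arrays and 12.56, 12.44, 12.64 and 12.61 on the CCN2 arrays, against 14.01, 13.86, 14.07 and 14.01 on the control arrays. The GDF15 and control arrays overlapped and every CCN2 array was lower, a difference of 1.47 (SE 0.085). The myosin light chain Myl9 was at 2.29 (SE 0.082), the myosin light chain kinase Mylk at 1.82 (SE 0.091), the actin-binding Tagln at 1.74 (SE 0.088) and vinculin, Vcl, at 1.63 (SE 0.11). Tagln was above control in GDF15 cells (0.52) and below it in CCN2 cells (-1.22).

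Matrix genes were mostly higher in GDF15 cells than in CCN2 cells, although Col1a1, of the main fibrillar collagen, did not pass the test. Over all genes 9.76% were above and 12.7% below control with GDF15, and 25.7% and 30.2% with CCN2. Of 15 collagens, 9 were higher and 2 were lower than in CCN2 cells (23.8% and 22% of all genes). Against control, 0 were higher and 6 lower in GDF15 cells, and 1 was higher and 9 lower in CCN2 cells. Col1a1 read 11.99, 11.67, 12.03 and 11.94 on the GDF15 arrays and 11.85, 11.76, 11.93 and 11.45 on the CCN2 arrays. The arrays overlapped, and the difference of 0.16 (SE 0.11) did not pass the threshold (adjusted p = 0.264), with a 95% interval of -0.071 to 0.39. The fibril-associated collagen Col14a1 was at 2.41 (SE 0.077), Col15a1 at 1.35 (SE 0.12) and the microfibrillar Col6a1 at 1.00 (SE 0.089). Of 29 elastic fibre and other matrix genes, 19 were higher and 4 were lower than in CCN2 cells, with a median of 0.50. Against control, 4 were higher and 13 lower in GDF15 cells, and 5 were higher and 20 lower in CCN2 cells. Comp was at 2.78 (SE 0.094), elastin, Eln, at 2.54 (SE 0.10) and the matrix Gla protein Mgp at 2.52 (SE 0.086), the dimmer Eln probe not passing the threshold. In all 3 the GDF15 cells lay below control too, at -2.08, -1.89 and -1.09 relative to it. Postn, the matricellular periostin, was higher at 1.11 (SE 0.13), with 1 CCN2 array not detecting it. The proteoglycan gene Vcan, picked after its values were seen as the list's most negative difference, read 5.90, 6.03, 5.59 and 6.06 on the GDF15 arrays and 7.94, 8.24, 8.03 and 8.18 on the CCN2 arrays, a difference of -2.20 (SE 0.13).

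Proteases and their inhibitors lay on both sides. Of 22 measured, 9 were higher and 7 were lower in GDF15 cells (23.8% and 22% of all genes). The urokinase gene Plau read 9.86, 9.86, 9.83 and 9.79 on the GDF15 arrays and 7.11, 7.09, 6.88 and 7.40 on the CCN2 arrays, against 9.10, 9.00, 9.46 and 9.16 on the control arrays, with GDF15 above and CCN2 below control, and its difference was 2.71 (SE 0.11). Mmp10, a stromelysin detected on no GDF15 array, was at least 5.68-fold lower. Of 19 collagen processing genes, 4 were higher and 11 were lower, led after P4ha2 by the prolyl hydroxylase P3h1 at -1.30 (SE 0.096), Plod1 at -1.08 (SE 0.095) and the lysyl oxidase Lox at -0.97 (SE 0.073).

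Growth factor families of the fibroblast were mostly higher in GDF15 cells than in CCN2 cells. Above and below control in GDF15 cells were 4 and 4 CCN and IGF genes and 8 and 3 TGF-beta targets. For the BMP list these counts were 1 and 6, and for the WNT list 4 and 4. In CCN2 cells the same lists, in this order, had 0 and 12, 6 and 10, 4 and 9, and 3 and 7. Over all genes 9.76% were above and 12.7% below control with GDF15, and 25.7% and 30.2% with CCN2. Of 15 CCN and IGF genes, 13 were higher and none was lower than in CCN2 cells (23.8% and 22% of all genes). Their median was 0.85 (0.75 with undetected genes at their bound). The transcript of Ccn2 itself read 14.20, 14.02, 14.09 and 14.21 on the GDF15 arrays and 11.79, 11.58, 11.82 and 11.78 on the CCN2 arrays, against 13.78, 13.89, 13.87 and 13.72 on the control arrays. All GDF15 arrays were above and all CCN2 arrays below the control range, and the difference was 2.38 (SE 0.085), which is 5.22-fold (adjusted p = 6.09e-13). Igf2 was at 3.19 (SE 0.11) after Igfbp4 and Ccn5. Of 17 TGF-beta targets, a list that also held ligands, 10 were higher and 6 were lower. The collagen-binding integrin Itga11 was at 2.94 (SE 0.097), and the ligand genes Tgfb3 and Tgfb2 were at 1.75 (SE 0.13) and 1.72 (SE 0.097). Of 13 BMP targets and inhibitors, 9 were higher and 3 were lower, with a median of 1.12. The ligand gene Gdf10, detected on 1 of 4 CCN2 arrays, was at 2.67 (SE 0.094), and Id4 was at least 4.99-fold higher. The inhibitory Smad6 was at 2.16 (SE 0.11) and Bmp4, also a ligand gene, at 1.87 (SE 0.091). Of 13 WNT ligands and antagonists, 8 were higher and 2 were lower, with Sfrp2 at 2.98 (SE 0.14) and Dkk3 at 2.35 (SE 0.083) after Sfrp1, and Ccn4 also on this list.

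Receptors of the 2 proteins were measured in part. No array of the 12 detected Gfral. Ret read 4.18, 4.24, 4.22 and 4.20 on the GDF15 arrays and 5.45, 5.60, 5.32 and 5.46 on the CCN2 arrays, with detection on every CCN2 array but on none of the GDF15 or control arrays, at least 1.87-fold lower in GDF15 cells. Of 3 Ret probes, 2 had this pattern of detection and the third was detected on no array. Of 20 receptors named for the treatments, 8 were higher and 7 were lower in GDF15 cells (23.8% and 22% of all genes). Ret, among the 7, passed the detection filter through the CCN2 arrays alone, so the filter shaped this count. The integrin gene Itgav, a subunit of CCN2-binding integrins, was at -1.98 (SE 0.11) and Itgb5 at 1.21 (SE 0.099), with the activin receptor gene Acvr1b at -1.12 (SE 0.098). Of the 2 dimmer Itgav probes neither passed the threshold.

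Markers of other cell types moved with the treatments, and their part in the results above was not tested. Of 13 macrophage markers, 10 were higher in GDF15 cells and none was lower (23.8% and 22% of all genes). The mean level of the list was 8.31 to 8.45 with GDF15, 6.91 to 7.05 with CCN2 and 8.92 to 9.00 in control. The complement gene C1qb read 10.87, 10.83, 10.89 and 10.74 on the GDF15 arrays and 7.49, 7.39, 7.21 and 7.41 on the CCN2 arrays, against 12.16, 12.14, 12.15 and 12.29 on the control arrays, a difference of 3.46 (SE 0.084). C1qc was at 3.45 (SE 0.098), C1qa at 2.73 (SE 0.10) and the mannose receptor gene Mrc1 at 2.97 (SE 0.12). Of 14 fibroblast markers, 9 were higher and 1 was lower, at mean levels of 10.69 to 10.80 with GDF15, 9.92 to 10.00 with CCN2 and 11.04 to 11.11 in control. The transcription factor Tcf21, which marks cardiac fibroblasts, read 11.36, 11.17, 11.43 and 11.07 on the GDF15 arrays and 8.44, 8.60, 8.65 and 8.46 on the CCN2 arrays, against 11.29, 11.27, 11.30 and 11.04 on the control arrays. Its GDF15 and control arrays overlapped and the difference was 2.72 (SE 0.099), while Fap was at 1.96 (SE 0.10), Fbln1 at 1.66 (SE 0.085) and Gsn at 1.52 (SE 0.097).

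Of 9 endothelial markers, 8 were higher than in CCN2 cells (23.8% of all genes were higher and 22% lower). Their mean levels were 8.31 to 8.53 with GDF15, 7.72 to 7.81 with CCN2 and 8.46 to 8.52 in control. Cldn5 was at 1.10 (SE 0.11) and Pecam1 at 1.05 (SE 0.098). Of 9 pericyte and smooth muscle markers, 7 were higher, at 6.13 to 6.33 with GDF15, 5.50 to 5.57 with CCN2 and 6.52 to 6.63 in control, led by Notch3 at 2.46 (SE 0.093). Of the keratinocyte markers, which bear on the cornified envelope genes, 3 of 8 were measurable and none passed the threshold, and Krt5, Krt14, Trp63 and Dsg3 were detected on no array. Of 4 measurable neutrophil markers, 3 were lower in GDF15 cells: Camp, S100a8 at -1.84 (SE 0.078) and Mpo at -0.90 (SE 0.096). Mpo was detected on 1 of 4 GDF15 arrays and on no control array. The CCN2 arrays thus carried Mpo past the detection filter, which shaped this count. No array detected Cxcr2, S100a9 or Ngp. Of 3 measurable cardiomyocyte markers 2 were higher, Nppa at 1.52 (SE 0.12) and Actc1 at 0.56 (SE 0.11), with the dimmer Actc1 probe not past the threshold. Of 2 measurable lymphocyte markers, the T cell gene Cd3e was at least 1.12-fold higher, being detected on 3 of 4 GDF15 arrays and on no CCN2 array. Of 13 ribosomal protein genes 1 was higher and 2 were lower, with a median of 0.093. Of 6 reference genes used to judge scaling, 2 were lower, 1 was higher and the median was -0.13, which turned to 0.016 without normalization between arrays. Tfrc was the lowest of these, Hprt was at -0.49 (SE 0.083) and Gusb at 0.54 (SE 0.11), with 2 of its 3 dimmer probes not past the threshold.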

How the data were processed

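Per the submitters' processing notes, the authors made the deposited signal intensities with GenomeStudio 2010.1; each intensity has a deposited detection p-value, per the file headers. The non-normalized intensities were corrected with normexp, quantile-normalized and put on the log2 scale with an offset of 16 (neqc, limma 3.58.1, R 4.3.3). Of 45281 probes, 20445 were tested, those detected (p-value under 0.05) on 4 or more of the 12 arrays; the other 24836 were not used. One mean per group was fitted over all 12 arrays (lmFit and eBayes, 9 residual degrees of freedom), two-sided, with Benjamini-Hochberg adjustment over all probes; every adjusted p-value of a gene comes from this limma fit. On simulated data for this comparison (20445 probes, 100 of them changed at each size) the fit recovered 68% of log2 differences of 0.5 and all of 1. Of its calls 10 were false (5.62%). Far fewer probes differed there than in the data and all groups had the same spread, so these shares need not hold for the data.

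A gene undetected on all arrays of a group has only a bound, written "at least N-fold": the bright group's mean against a floor averaged over the dim group's arrays, each array's floor being its lowest detected signal or the gene's value there, whichever is larger. Symbols came from the platform's annotation, updated by gene ID through RefSeq (GRCm38.p6): 34885 probes had 1 symbol, 18 several and 10378 none, and 34807 matched. A gene is its tested probe with the highest mean, which gave 11018 genes, 4330 of them with more than 1 tested probe. Of 181 genes picked by rule, 16 had another probe that differed in call or sign. Named were the 12 largest differences each way, up to 8 per direction of the CCN2-led, GDF15-led and GDF15-outermost genes, up to 6 opposed genes per direction, up to 4 members per list, and Ccn2, Gfral, Ret, Acta2, Col1a1 and Postn; predicted transcripts were left out. The groups, lists and rules were chosen with earlier results of these data known. Lists are described by counts and medians without a set test. The number of arrays limits the precision.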

Additional observations from a re-analysis of the deposited data

Results flagged for a closer look

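In 31 of 495 sets of 4 arrays (165 genes in 3 groups), 1 array lay far from the other 3 by Dixon's test, where chance alone flags about 1 in 20. The values below are normalized log2 intensities, and why these arrays lay apart was not tested. On GDF15 array 9, Prl2c2 at 4.39 lay above the other 3 arrays. On GDF15 array 10, Cxcl2 at 7.79 lay above the other 3 arrays. On GDF15 array 10, Cemip at 12.05 lay below the other 3 arrays. On GDF15 array 11, Tfrc at 7.68 lay above the other 3 arrays. On GDF15 array 11, Fos at 8.31 lay below the other 3 arrays. On GDF15 array 12, Lss at 8.84 and Plod1 at 7.15 lay above the other 3 arrays. On GDF15 array 12, Gusb at 10.49 lay below the other 3 arrays. On CCN2 array 5, Cldn5 at 7.04, Itga11 at 7.90 and Nqo1 at 8.03 lay above the other 3 arrays. On CCN2 array 5, Dkk3 at 6.79 lay below the other 3 arrays. On CCN2 array 6, Hspb8 at 11.04 lay above the other 3 arrays. On CCN2 array 6, Aldh1a1 at 6.77 and Ccn2 at 11.58 lay below the other 3 arrays. On CCN2 array 7, Cenpw at 8.26 and Gdf10 at 4.58 lay above the other 3 arrays. On CCN2 array 8, Ptpn22 at 5.58 and Traf1 at 8.40 lay above the other 3 arrays. On control array 1, Gal3st2 at 8.08 lay above the other 3 arrays. On control array 1, Vcan at 4.49 lay below the other 3 arrays. On control array 2, Ret at 4.20 lay below the other 3 arrays. On control array 3, Gucy1a1 at 12.12 and Traf1 at 5.44 lay above the other 3 arrays. On control array 3, Cyp51 at 8.99 lay below the other 3 arrays. On control array 4, C1qb at 12.29, Cd3e at 4.82 and Slc16a3 at 4.46 lay above the other 3 arrays. On control array 4, Tcf21 at 11.04, Tfrc at 7.99 and Tnxb at 9.14 lay below the other 3 arrays.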

How the results depend on the processing

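Quantile normalization sets the balance of directions and the smaller classes. With median scaling 2302 probes were lower in GDF15 cells (4272 in the main analysis), 577 genes were CCN2-led and raised (1283), 29 were GDF15-led and lowered (62), 49 had GDF15 lowest (92) and 347 were graded above control (555). Shared with the main analysis were 542 of the 577, 13 of the 29 and 37 of the 49. The median of the G2 and M phase list then turned to 0.057, and lower members numbered 3 of the TGF-beta targets and 4 of the heat shock genes. Without normalization between arrays, an alternative chosen after seeing the data, 6486 probes were higher and 1965 were lower, 485 genes were CCN2-led and raised, 15 were GDF15-led and lowered, 30 had GDF15 lowest, 8 were opposed with GDF15 low and 308 were graded above control. The medians of the G2 and M phase list and of the reference genes were 0.098 and 0.016, and lower members fell in number to 11 of the interferon list, 6 of antigen presentation, 7 of cholesterol synthesis, 6 of collagen processing and 7 of the p53 targets. Col1a1 then passed the threshold (0.35, adjusted p = 0.0343).

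An offset of 50 gave 923 probes with at least a 2-fold difference (1488) and 29 opposed genes with GDF15 low (19), and array weights gave 29 such genes too. The CC chemokine median was -0.0030 without the detection filter and -0.73 with the stricter one, which takes out by construction genes detected in CCN2 cells alone, such as Csf2 and Sprr2e, and left 3 CXC chemokines, 9 cytokines and 2 cystatin and cornified envelope genes lower.

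Leaving out each array in turn gave 7832 to 8561 called probes, 3927 to 4306 higher and 3905 to 4255 lower, and 1473 to 1531 with at least a 2-fold difference. CCN2-led genes numbered 1232 to 1332 raised and 1131 to 1332 lowered, GDF15-led genes 83 to 117 and 58 to 77, GDF15-outermost genes 183 to 225 and 87 to 117, opposed genes 76 to 91 and 16 to 29, and graded genes 462 to 557 and 600 to 704. The GDF15-led class lost Cpxm1 without CCN2 array 5, 7 or 8, Bdnf without array 7 or 8, Gal3st2 without array 8 and Selenbp2 without array 6, 7 or 8. Pdlim3 left the CCN2-led class without GDF15 array 11 or 12, and Cemip without GDF15 array 10, with median scaling and without normalization between arrays. Of the named genes' differences, 3088 of those recomputed kept direction and call, 23 lost the call, 4 gained it and none changed sign; the losses were in Cdca3, Cycs, Kif23, Ndufa1 and Nusap1. No paired analysis was possible because the titles number the arrays through all groups, so the groups share no number. Dim probes limit what can be seen: a gene undetected in a group has only a bound.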
